A study of Mus musculus with 4 samples.

Results

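The extracellular matrix genes of C8-D1A, an established mouse astrocyte line, are described here: collagen chains, laminin chains, and a set of named glycoproteins, proteoglycans and cross-linking enzymes. Members were the protein-coding rows of the deposited table whose symbol has the form of a collagen chain (Col, number, a, number) or a laminin chain (Lama, Lamb or Lamc with a number), plus any of 13 genes named singly. They came to 63 of 24169 rows: 42 collagen chains, 10 laminin chains and 11 of the 13 named genes. Lox and Lum, the other two named genes, were not analysed here. The rule uses symbols and no measured value, although it was written with earlier results of these data known. The cells were untreated (2 libraries, control 1 and control 2) or kept with 1 mM MBP for 24 h (2 libraries, MBP 1 and MBP 2). The series title concerns dibutyl phthalate, a plasticizer that the body turns into monobutyl phthalate. The labels give the agent as MBP alone. Both groups are the same line, so the comparison covers 1 cell population grown in culture and no animal.

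The basement membrane is a thin sheet of type IV collagen and laminin networks joined by nidogen and perlecan. The interstitial matrix consists of fibrils of types I, III and V collagen with fibronectin, elastic fibres and small proteoglycans that dress the fibrils. Laminins are assembled from an alpha, a beta and a gamma chain, and collagens from like or different chains wound into a triple helix. Where an assembly joins different chains, RNA of each of them is needed. In the brain, astrocytes contribute to the basement membrane around blood vessels and at the brain surface. The values are RNA levels; secreted protein was not measured.

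Levels are given in FPKM, reads scaled to the length of the gene and the depth of the library, a scale per length on which genes can be set side by side. That length covers all annotated exons of a gene. Where the transcripts in these cells lack some of them, FPKM understates the gene, and transcripts were not examined. Library depth recovered from the step of the values was 23571000 to 25907000 reads. For 58 of the 63 members the values of all libraries were whole numbers of reads (within 0.05), so reads are given for low genes. Of 10 astrocyte markers, 3 passed the filter of FPKM at least 1 in at least 2 libraries. These were Glul at 12.6 to 13.6, S100b at 4.75 to 5.69 and Sox9 at 2.22 to 2.50 FPKM, while Gfap stood at 0.119 to 0.282 and Slc1a3 had 1 read in all 4 libraries together. Most of the astrocyte markers were thus near 0 in cells labelled as astrocytes. Of 10 fibroblast and pericyte markers present in the table, 7 had a mean under 1 FPKM and Vtn was at 0, while Acta2 stood at 515.5 to 605.8 and Pdgfrb at 5.97 to 7.11. Col1a1, Col1a2 and Dcn, among those 7, are also members described below, so their low values here are not separate evidence. Sox10 (87.75 to 99.97) and Ngfr (183.7 to 202.8), markers of oligodendrocyte and Schwann lineages, were high. Separate cultures for the 2 libraries of a group are not stated in the labels, so the p-values reflect only how far these samples spread, and that spread may be technical.

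The cells made RNA for a basement membrane and for fibronectin and tenascin, and little for type I collagen, elastin, fibrillin (Fbn1), biglycan or decorin. Summed over all members the level was 686.5 to 710.4 FPKM in controls and 670.9 to 705.5 in MBP, or 0.282% to 0.298% of all FPKM in a library. Basement membrane and network collagens held 28.7% to 29.7% of that sum, fibronectin and its class of glycoproteins 26.4% to 28.1%, and laminins 20.3% to 20.8%. Fibrillar collagens held 7.78% to 8.38%, multiplexins 7.46% to 7.92%, and beaded-filament collagens 5.08% to 5.25%. The 15 members with a mean of at least 10 FPKM came from these 6 groups. At the other end 39 members lay under the filter: 28 collagen chains, 4 laminin chains and 7 of the others.

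**Figure D1:**
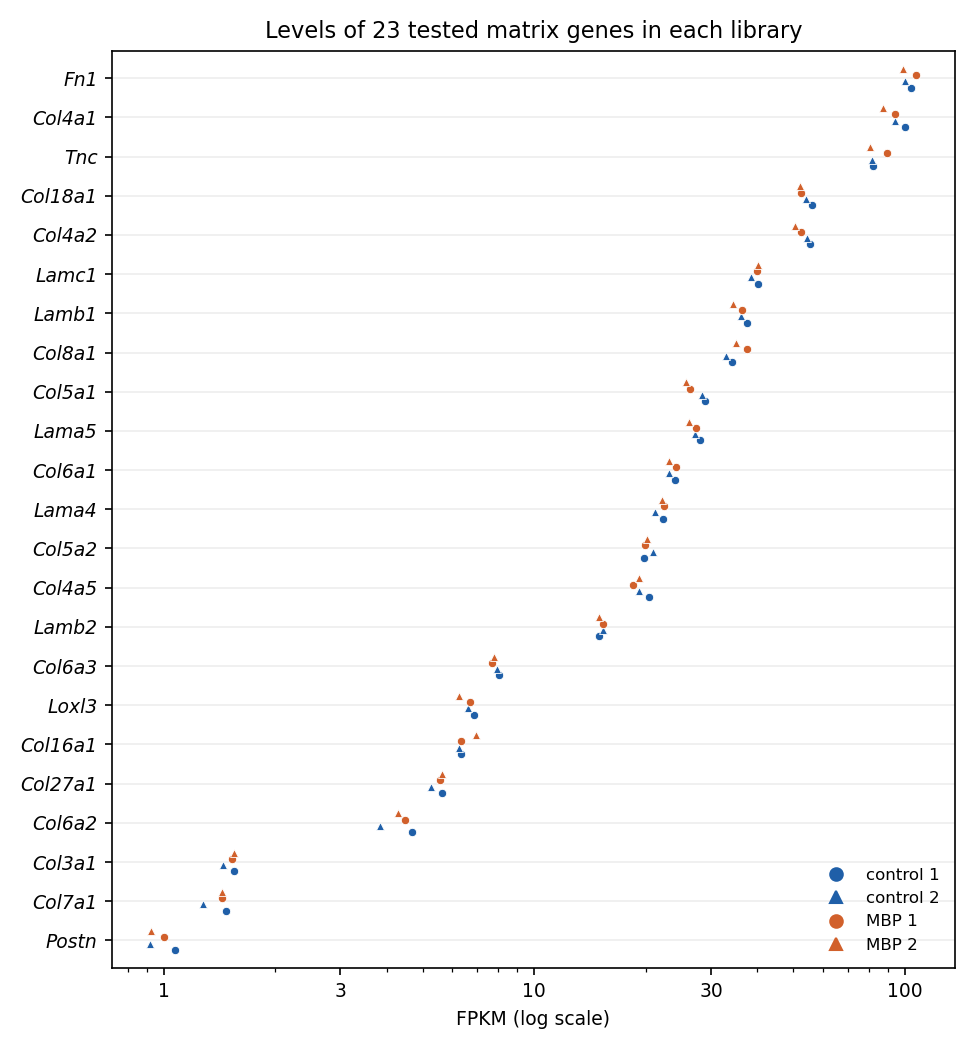
FPKM (log scale) of 23 of the 24 members that passed the filter, in order of mean level, with 1 point per library; circles are replicate 1, triangles replicate 2, blue control and orange MBP. Levels run from 107.4 for Fn1 to 0.921 for Postn, and the spread between libraries of a gene is small beside the distance between most genes.

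Fn1, fibronectin, which cells assemble into fibrils through integrins, had 104.1 and 100.1 FPKM without MBP and 107.4 and 98.6 with it. It lay at percentile 98.5 of protein-coding genes by mean level (chromosome 1, 71585520 to 71653200, minus strand, GRCm38). Col4a1 had 100.3 and 93.9 FPKM without MBP and 94.3 and 87.5 with it, and its range overlapped that of Fn1. Tnc, tenascin C, a glycoprotein of developing and injured tissue that modulates adhesion (chromosome 4, 63959785 to 64047015), had 81.8 and 81.5 FPKM without MBP and 89.2 and 80.5 with it. Tnc overlapped Col4a1 in turn, so the order of these 3 genes was not resolved. Below them came a gap: the lowest value of Tnc, 80.5, was above the highest value of the next gene, Col18a1, at 56.2. Of the 23 pairs of neighbours among the 24 members that passed the filter, 15 had ranges over the 4 libraries that did not overlap and 8 had ranges that did. Postn, periostin, a glycoprotein of connective tissue, was a member of the same class at the bottom of this order, with 1.07 and 0.921 FPKM without MBP and 1.00 and 0.923 with it.

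Type IV collagen, the network former of basement membranes, came from 3 of its 6 genes. Col4a1 and Col4a2, whose chains form the common type IV trimer with more of the Col4a1 chain, were the leading chains. Col4a2 had 55.5 and 54.5 FPKM without MBP and 52.5 and 50.4 with it, with both MBP values under both controls. The level of Col4a1 was 1.81, 1.72, 1.79 and 1.74 times that of Col4a2 in control 1, control 2, MBP 1 and MBP 2. That ratio varied little between libraries. Col4a5, a chain that normally assembles with those of Col4a3 and Col4a4 or of Col4a6, had 20.4 and 19.2 FPKM without MBP and 18.5 and 19.2 with it. All 3 of these partners lay under the filter. Col4a3 had 23, 11, 17 and 20 reads (0.0468 to 0.0948 FPKM), Col4a4 52, 54, 36 and 74 reads (0.142 to 0.269 FPKM) and Col4a6 8, 11, 3 and 7 reads (0.0157 to 0.0585 FPKM).

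The 6 type IV genes lie in the genome as 3 pairs, each head to head. The annotated starts of Col4a1 (chromosome 8, 11198423 to 11312826, minus strand) and Col4a2 (11312805 to 11449287, plus strand) overlapped by 22 bases, and both genes were high. Those of Col4a4 and Col4a3 on chromosome 1 were separated by 71 bases, and both genes were low. Those of Col4a6 and Col4a5 on the X chromosome were 1308 bases apart, and the levels of this pair differed: over the 4 libraries Col4a5 had 12705 reads against 29 for Col4a6. Per length that is a ratio of 520.0 (95% exact binomial interval 362.0 to 777.0, counting error only). Sequence upstream of the starts is shown for the low pair with the shortest gap and for both sides of the pair that differed, from RefSeq promoter windows of build GRCm38.p6, cut to bases in no annotated exon. Sequences run 5′ to 3′ on the strand of the named gene, with matches to CCAAT or GGGCGG on either strand (ATTGG and CCGCCC on the printed one) in capitals.
Col4a4, all 71 bases between the starts of Col4a4 and Col4a3, minus strand, chr1:82586850-82586920: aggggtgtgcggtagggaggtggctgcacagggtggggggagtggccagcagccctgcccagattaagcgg
Col4a5, plus strand, chrX:141475169-141475384: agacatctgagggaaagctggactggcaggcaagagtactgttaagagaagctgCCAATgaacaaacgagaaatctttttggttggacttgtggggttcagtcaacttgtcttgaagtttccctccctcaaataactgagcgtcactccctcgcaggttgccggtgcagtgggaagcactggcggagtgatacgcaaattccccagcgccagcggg
Col4a6, minus strand, chrX:141474077-141474326: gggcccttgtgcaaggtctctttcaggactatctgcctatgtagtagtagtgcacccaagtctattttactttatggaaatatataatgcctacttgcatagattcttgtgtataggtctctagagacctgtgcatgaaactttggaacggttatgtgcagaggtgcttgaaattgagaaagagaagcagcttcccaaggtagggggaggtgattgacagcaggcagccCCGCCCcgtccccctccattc

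The Col4a5 stretch of 216 bases, which ends 34 bases before the RefSeq start, held 8 CpG dinucleotides and 1 CCAAT, and the Col4a6 stretch of 250 bases held 3 CpG and 1 GGGCGG. With those 34 bases included, the 250 bases before the Col4a5 start held 10 CpG and also a match to GGGCGG or its complement. Such a match was thus present upstream of both genes. In the whole 250 bases before the start Col4a1 had 31 CpG and Col4a2 had 26, against a median of 6 over 32851 RefSeq windows of that length. CCAAT or its complement was present in 33.8% of those windows GGGCGG or its complement in 32.7%, TATAAA or its complement in 12.4%, and TGACGTCA, which is its own complement, in 1.55%. Windows were found for 43 members. The median was 11 CpG for the 18 of them that passed the filter and 8 for the 25 that did not. GGGCGG was in 12 of the 18 and 14 of the 25, CCAAT in 7 and 6, TATAAA in 2 and 4, and TGACGTCA in 0 and 0. These medians and counts take 1 window per gene, the first listed, whereas the shares above are over all windows. A further window of Postn, not counted, held TATAAA or its complement. A match of letters is a description and not a binding site.

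Laminins, the other network of the basement membrane, were made from a small set of chains. Among alpha chains Lama5 had 28.1 and 27.1 FPKM without MBP and 27.3 and 26.1 with it, and Lama4 had 22.2 and 21.1 without MBP and 22.3 and 22.0 with it. Lama5 was above Lama4 in every library, by a factor of 1.18 to 1.28. The chain Lama2, of muscle and Schwann cell basement membranes, had 14, 8, 10 and 7 reads, and Lama3, an epithelial chain, had 1, 2, 9 and 4. Over the 4 libraries Lama4 had 899.0 times the level of Lama2 per length (exact binomial 95% interval 657.0 to 1260, counting error only). Among beta chains Lamb1 had 37.4 and 36.0 FPKM without MBP and 36.3 and 34.3 with it, Lamb2 had 15.0 and 15.3 without MBP and 15.3 and 14.9 with it, and Lamb3 had 10 to 21 reads a library. Among gamma chains Lamc1 had 40.0 and 38.3 FPKM without MBP and 40.0 and 40.1 with it. Lamc3 had 2, 11, 0 and 1 reads.

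**Figure D2:**
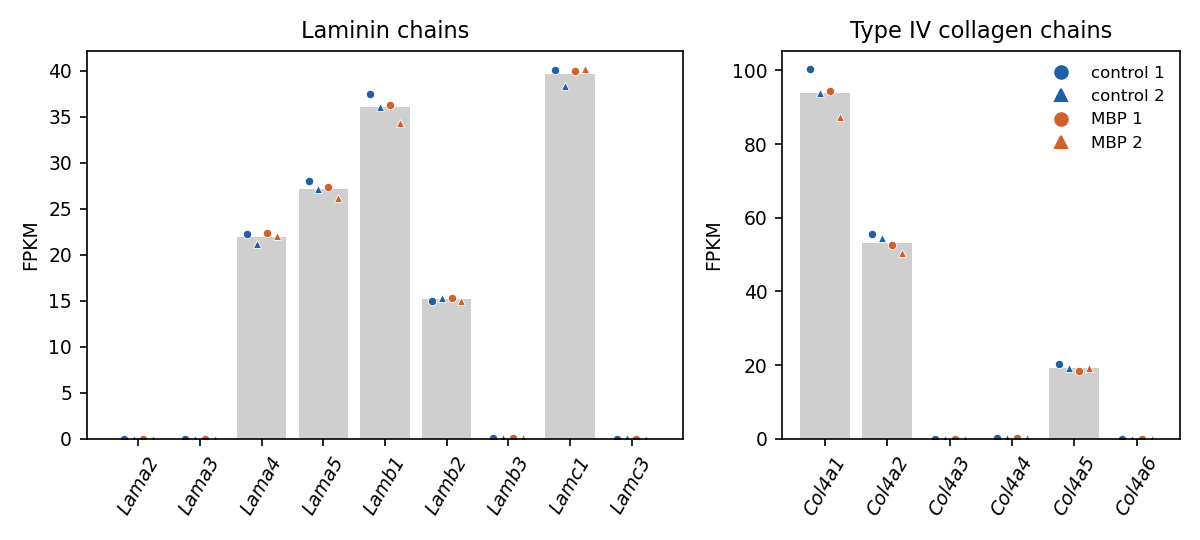
FPKM of 9 laminin chains (left) and type IV collagen chains (right) on linear axes from 0. Grey bars are means over the 4 libraries and points are single libraries. Lama4, Lama5, Lamb1, Lamb2 and Lamc1 carry nearly all laminin signal, and Col4a1, Col4a2 and Col4a5 nearly all type IV signal.

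In sum over their genes alpha chains stood at 48.2 to 50.3 FPKM and beta chains at 49.3 to 52.5, beside 38.3 to 40.1 for Lamc1. RNA was thus present for the partners of trimers with a Lama4 or Lama5, a Lamb1 or Lamb2, and a Lamc1 chain. Which trimers were assembled was not measured. Col18a1, a heparan sulfate collagen of basement membranes whose end fragment is endostatin (chromosome 10, 77052178 to 77166548), had 56.2 and 54.1 FPKM without MBP and 52.6 and 52.0 with it. The other multiplexin, Col15a1, had 2, 1, 6 and 2 reads.

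Type VIII collagen, a short-chain network collagen best known from vessel walls and the cornea, came from 1 of its 2 genes. Col8a1 had 34.2 and 33.0 FPKM without MBP and 37.5 and 35.0 with it (chromosome 16, 57624258 to 57754737, minus strand), with both MBP values above both controls. Col8a2 had 1, 1, 0 and 2 reads (chromosome 4, 126286793 to 126314330, plus strand). Col10a1, the related chain of growth cartilage, had 0 reads in every library, which allows up to 0.0370 to 0.0407 FPKM by library (3 reads, counting error only). The stretches upstream of the 2 type VIII starts are set side by side because the genes differ so far in level. They are cut and marked as above.
Col8a1, minus strand, chr16:57754738-57754987: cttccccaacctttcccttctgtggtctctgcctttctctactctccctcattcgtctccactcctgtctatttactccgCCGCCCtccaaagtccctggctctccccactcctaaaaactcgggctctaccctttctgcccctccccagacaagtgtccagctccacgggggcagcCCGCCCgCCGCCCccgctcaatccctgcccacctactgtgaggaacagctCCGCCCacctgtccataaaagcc
Col8a2, plus strand, chr4:126286544-126286792: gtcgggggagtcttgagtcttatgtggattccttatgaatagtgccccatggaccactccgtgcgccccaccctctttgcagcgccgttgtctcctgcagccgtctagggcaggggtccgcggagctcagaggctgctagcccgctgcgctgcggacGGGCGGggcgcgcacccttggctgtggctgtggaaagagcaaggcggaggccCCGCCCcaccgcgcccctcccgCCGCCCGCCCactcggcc

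Col8a1, the high gene, had 10 CpG in its stretch, and Col8a2, the low one, had 23. Each stretch held 4 matches to GGGCGG or its complement and 0 to CCAAT, the matches in Col8a2 including 2 that overlap.

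Fibrillar collagens were represented mainly by type V, which nucleates and thins fibrils. Col5a1 had 29.0 and 28.3 FPKM without MBP and 26.3 and 25.6 with it (chromosome 2, 27886425 to 28039514). Col5a2 had 19.8 and 20.9 without MBP and 19.9 and 20.1 with it, and the third chain, Col5a3, had 0.615 to 0.729. The ratio of Col5a1 to Col5a2 was 1.46 and 1.35 without MBP and 1.32 and 1.27 with it. Type I, the main collagen of connective tissue, was low: Col1a1 had 88, 79, 79 and 77 reads (0.453 to 0.551 FPKM) and its partner Col1a2 had 17, 9, 19 and 15 (0.0307 to 0.0638 FPKM). Per length Col1a1 was 10.2 times Col1a2 (exact binomial 95% interval 7.72 to 13.7, counting error only), from 60 Col1a2 reads pooled over the 4 libraries. By library the ratio was 9.8 and 16.6 without MBP and 7.87 and 9.72 with it, so control 2 lay outside that interval. Annotated exon lengths were 6563 bases for Col1a1 and 12426 for Col1a2. Col3a1, type III, had 1.55 and 1.45 FPKM without MBP and 1.53 and 1.55 with it. It lies tail to tail with Col5a2, 24614 bases away, and was far lower than that neighbour. Col27a1, a fibrillar chain of cartilage, had 5.63 and 5.25 FPKM without MBP and 5.56 and 5.63 with it. Of the cartilage chains Col11a1 had 53 to 62 reads a library, while Col11a2 and Col2a1 had 0.0735 to 0.124 and 0 to 0.0274 FPKM. Col24a1, a further fibrillar chain, had 0.0152 to 0.0274 FPKM.

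Type VI collagen, which forms beaded filaments near cell surfaces, came from its 3 classical chains. Col6a1 had 23.9 and 23.1 FPKM without MBP and 24.1 and 23.1 with it. Col6a3 had 8.05 and 7.94 without MBP and 7.70 and 7.78 with it, with both MBP values lower. Col6a2 had 4.67 and 3.83 without MBP and 4.49 and 4.29 with it. Although the trimer needs each of these chains, Col6a1 stood 5.13 to 6.03 times above Col6a2, its neighbour on the same strand of chromosome 10. This ratio depends on annotated exon length, 4380 bases for Col6a1 and 8326 for Col6a2. Before scaling to length, reads over the 4 libraries were 10096 and 3520. Col6a1 stood 2.91 to 3.13 times above Col6a3. The 3 later-described chains, which lie together on chromosome 9, had almost no reads: 6 for Col6a4, 1 for Col6a5 and 1 for Col6a6 over all libraries.

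Of the collagens that decorate fibrils, 1 of 8 passed the filter. Col16a1 had 6.33 and 6.26 FPKM without MBP and 6.34 and 6.96 with it, with a small margin between groups and a high value in MBP 2. Col12a1, Col9a3, Col14a1, Col20a1 and Col19a1 had means of 0.664, 0.494, 0.393, 0.293 and 0.0910 FPKM, and Col22a1 and Col9a2 had 7 and 1 reads in all. The transmembrane chains were all low, with Col17a1 at 0.0434 to 0.0809 FPKM, Col13a1 at 7 reads and Col25a1 at 1 read in all. Col7a1, of the anchoring fibrils beneath skin epithelium, had 1.47 and 1.28 FPKM in controls and 1.44 in each MBP library. Col28a1 had 9, 8, 13 and 1 reads and Col26a1 8 in all.

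Lysyl oxidases cross-link collagen and elastin, and of the 4 members of this family Loxl3 alone passed the filter. It had 6.90 and 6.64 FPKM without MBP and 6.71 and 6.28 with it, while Loxl1, Loxl4 and Loxl2 had 10, 9 and 5 reads over the 4 libraries. Loxl3 shares 11.6% of its exon bases with Htra2 on the other strand (mean 12.7 FPKM). Whether counting used strand is not given in the sources used here, and without strand the reads of these genes cannot be told apart where they overlap. Both elastic fibre genes among the members were under the filter. Eln, elastin, had 0 reads in each library, which allows up to 0.0143 to 0.0157 FPKM (3 reads), and Fbn1, the microfibril protein fibrillin, had 0.582 to 0.735 FPKM. Of the small proteoglycans that coat fibrils, Bgn, biglycan, had 11, 14, 10 and 14 reads and Dcn, decorin, had 1 read in all. The 0 values were not general: 9 genes that all cells use, checked for this purpose, were at 4.16 FPKM or more in each library.

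**Figure D3:**
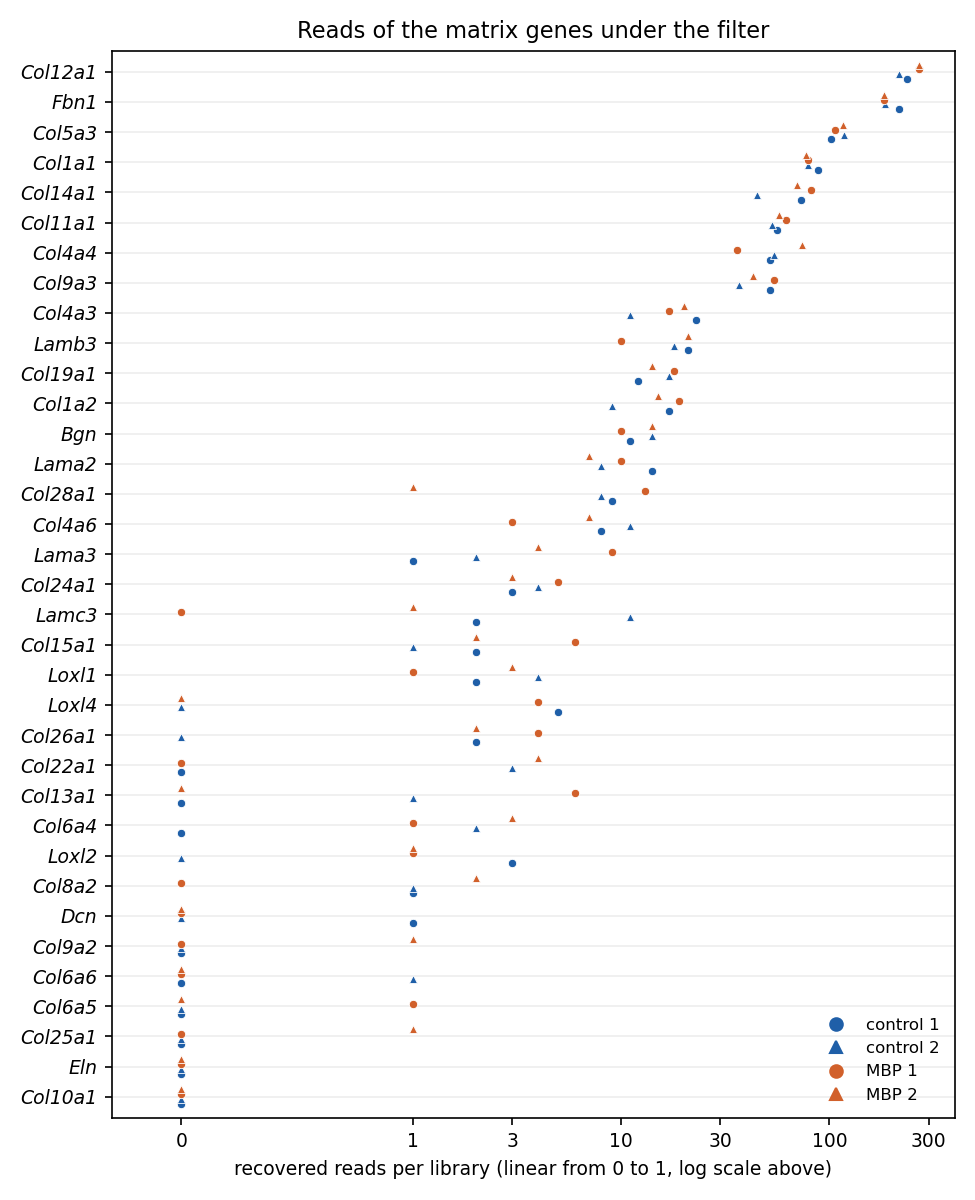
Recovered reads per library of the 35 members under the filter whose values came out as whole reads; the axis is linear from 0 to 1 and logarithmic above, circles are replicate 1, triangles replicate 2, blue control and orange MBP. Reads run from 270 for Col12a1 to 0 in all libraries for Eln and Col10a1, with groups interleaved at the low end.

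The comparison of the groups asked whether MBP changed this matrix RNA. None of the 24 members that passed the filter was called: limma's moderated test gave adjusted p from 0.512 to 0.998 for them, where 0.0% of 12403 genes tested were called at an adjusted p under 0.05. The lowest adjusted p of any gene was 0.392. On recovered reads limma-voom called 18 genes, 0 of them members. At an unadjusted p under 0.05 there was 1 member, Col5a1, or 1 of 24, against 1201 of all tested genes (9.68%). Log2 fold changes of log2(FPKM + 1), MBP minus control, ran from -0.14 to 0.11 with a median of -0.01, against a median of -0.0048 over all tested genes. There were 11 positive and 13 negative values. The outermost limits of the 95% intervals were -0.34 and 0.32, both of low genes (Postn and Col7a1). In such bulk samples fewer cells of a type and less RNA per cell cannot be told apart.

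The mean of Col5a1 was 28.6 ± 0.448 FPKM for controls against 26.0 ± 0.514 for MBP (SD, n = 2 per group). Its log2 fold change was -0.14 with an SE of 0.0519, and limma's adjusted p = 0.512. Both MBP libraries lay under both controls. Col4a2 and Col4a1 had nearly equal log2 fold changes of -0.09 each, but the controls and MBP libraries overlapped for Col4a1 and not for Col4a2. Col18a1 stood at -0.08 and Col6a3 at -0.04, also without overlap. In the other direction the mean of Col8a1 was 33.6 ± 0.853 FPKM for controls against 36.2 ± 1.78 for MBP (SD, n = 2 per group). Its log2 fold change was 0.11 (95% interval -0.05 to 0.26) and limma's adjusted p = 0.58. Col16a1 stood at 0.07. In all 2 of 24 members were higher in MBP without overlap of the groups (8.33%, against 21.3% of all tested genes) and 4 were lower (16.7%, against 23.5%). On this scale both shares were under those of all genes, but the counts are small and the difference was not tested. Rescaled to TPM the counts were 4 higher (16.7%, against 24.2% of all genes) and 3 lower (12.5%, against 18.8%). After correction for GC content and length they were 7 higher (29.2%, against 19.0%) and 3 lower (12.5%, against 19.3%), so the higher share then lay above that of all genes.

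**Figure D4:**
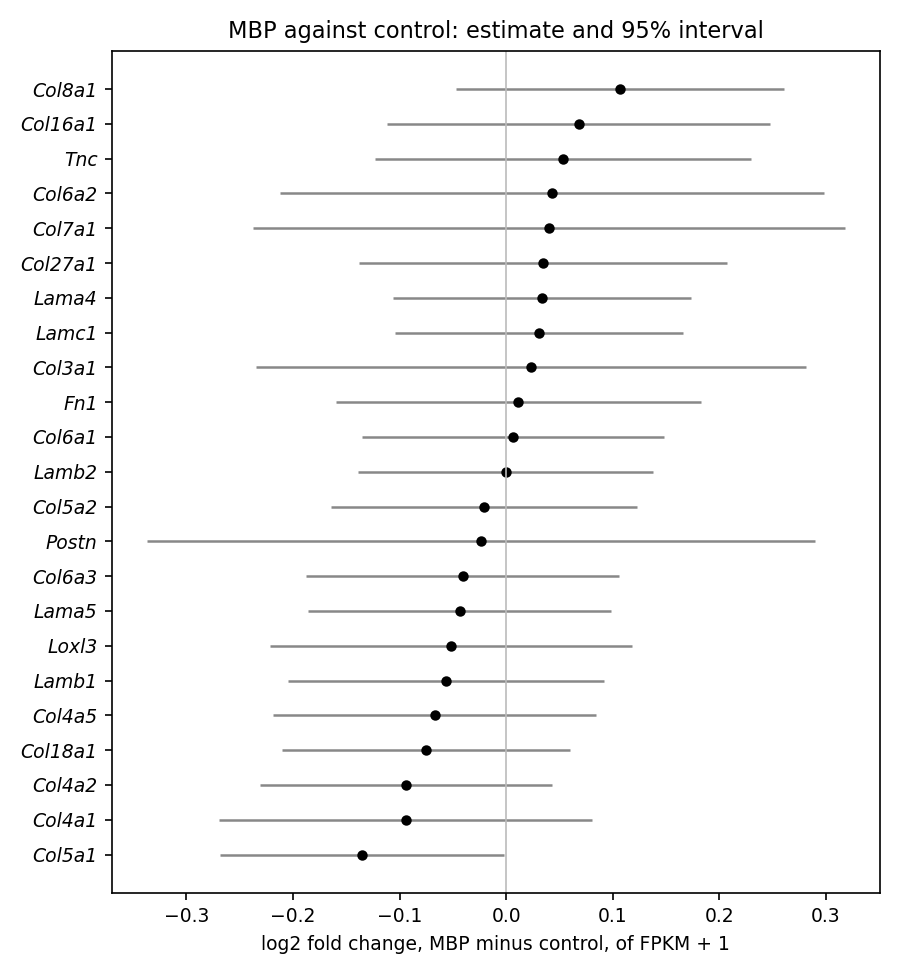
Log2 fold change, MBP minus control, of FPKM + 1 for 23 of the 24 members that passed the filter; points are limma estimates and lines 95% intervals. Estimates lie between -0.14 and 0.11, and the interval of Col5a1 alone ends short of 0, before any adjustment for the number of genes tested.

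Fold changes of all genes followed GC content of the longest transcript, with a Spearman's rho of -0.442 across 12389 genes, which are not independent replicates. Between the 2 controls rho was 0.139 and between the 2 MBP libraries -0.158. The 4 members lower without overlap had a GC content of 54.5% to 60.8%, while of the 2 higher ones Col8a1 had 46.8% and Col16a1 had 61.4%, above all 4 lower members. With the correction Col5a1 stood at -0.08, Col4a1 at -0.04, Col4a2 at -0.01, Col6a3 at -0.02, Col8a1 at 0.07 and Col16a1 at 0.16, while Col18a1 stood at 0.01. Summed levels of 3 marker lists were also lower in MBP, in the third through 1 gene. Fibroblast and pericyte markers summed to 579.3 to 614.6 FPKM without MBP and 523.7 to 549.2 with it, mostly Acta2, and oligodendrocyte and Schwann markers to 331.0 to 334.4 against 298.8 to 304.8. Neuron markers summed to 36.2 to 39.1 against 29.93 to 29.98, mostly Tubb3 (log2 fold change -0.43), while Nefl and Map2 had positive values of 0.17 and 0.09. In these lists Vtn was at 0, Dcn at 1 read, and Snap25 at 1 read over the 4 libraries. Astrocyte markers summed to 21.81 to 22.99 FPKM without MBP and 22.16 to 22.78 with it, so the groups overlapped. Microglia markers were near 0, at 0.514 to 0.545 FPKM without MBP and, higher, 0.625 to 0.658 with it. Endothelial markers (0.0866 to 0.107, with Cldn5 at 0) were near 0 too. The part of GC content and of these markers in the values of the collagens was not tested.

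By class the 6 laminin chains tested had a median log2 fold change of -0.02, with 0 chains whose groups did not overlap. Of all tested genes 21.3% were higher and 23.5% lower without overlap, and 6 chains are too few to set against these shares. Lamb1 had the largest size among these 6, at -0.06, and Lamb2 the smallest, at -0.0004. For Fn1 the estimate was 0.01 (95% interval -0.16 to 0.18) and for Tnc 0.05 (-0.12 to 0.23). For Tnc the value rested on MBP 1, the highest of the 4 libraries at 89.2 FPKM, and without it the estimate was -0.02. With 2 libraries a group a change within these limits was not detectable.

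Genes that work with these proteins were read from 3 further lists. Of 24 genes of collagen folding and processing 23 were in the table and 20 were tested, with 0 past the threshold. Serpinh1, the collagen chaperone HSP47, had 112.4 and 124.3 FPKM without MBP and 104.4 and 106.4 with it, and P4hb, the disulfide isomerase that is also the beta subunit of prolyl hydroxylase, had 109.8 and 126.1 against 98.4 and 104.9. In both genes MBP values lay under controls, with log2 fold changes of -0.16 and -0.21 (limma adjusted p = 0.522 and 0.517) that stood at -0.08 and -0.15 after the GC and length correction. The list had 1 gene higher and 6 lower without overlap, against 21.3% and 23.5% of all genes, and a median of -0.03. It was -0.02 after the GC and length correction.

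Of 27 other basement membrane and matrix genes in the table, 10 were tested and 17 lay under the filter. Sparc, a collagen-binding protein, had 157.4 and 168.2 FPKM without MBP and 154.3 and 155.1 with it. Hspg2, perlecan, had 76.2 and 75.0 against 73.2 and 69.6. Both bind components of the basement membrane and were the 2 most abundant genes of this list. Nidogen, the link between laminin and type IV collagen, came mainly from Nid2, at 59.3 and 56.6 FPKM without MBP and 53.8 and 51.3 with it, with Nid1 at 0.208 to 0.272. Ltbp3, which tethers latent TGF-beta, had 45.1 and 43.8 FPKM without MBP and 39.7 and 37.0 with it, a log2 fold change of -0.21 (limma adjusted p = 0.503). After the GC and length correction it stood at -0.14. It was the 1 gene of the 10 tested with an unadjusted p under 0.05, against 9.68% of all genes. Of the 10 tested, 0 were higher and 5 lower without overlap, against 21.3% and 23.5% of all tested genes. The median of the list was -0.08, or -0.02 after the correction. Beyond the members, some elastic fibre and small proteoglycan genes passed the filter here, while most were near 0. Efemp2, fibulin-4, which takes part in elastic fibre assembly, had 40.8 and 47.2 FPKM without MBP and 41.6 and 40.9 with it, and Ogn, the small proteoglycan osteoglycin, 4.24 and 4.03 against 3.24 and 3.71. Emilin1 had a mean of 1.91 FPKM. By contrast Fbn2, Fbln1, Fbln2, Fbln5, Mfap4 and Mfap5 had means of 0.00396 to 0.148 FPKM, and Mfap2 was at 0. The small proteoglycans Prelp and Aspn had means of 0.173 and 0.00820.

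Receptors for laminin, fibronectin and collagen were present. Of 23 receptor genes 18 were tested and 0 passed. Itgb1, the common beta subunit of matrix integrins, had 229.1 and 244.1 FPKM without MBP and 234.7 and 241.6 with it, the highest level of this list. Cd44, a hyaluronan receptor, had 84.9 and 82.5 against 92.4 and 94.1. Ddr2, a receptor kinase for fibrillar collagen, had 51.3 and 49.2 FPKM without MBP and 56.1 and 56.2 with it, and Itga3, a laminin-binding subunit, had 35.6 and 36.4 against 32.0 and 31.5. These 3 of the 18 tested had an unadjusted p under 0.05, against 9.68% of all genes. Their log2 fold changes were 0.15, 0.16 and -0.18, with limma adjusted p of 0.503 or 0.504. After the GC and length correction they stood at 0.10, 0.08 and -0.11. Of the 18 receptor genes tested, 3 were higher and 5 lower without overlap, against 21.3% and 23.5% of all tested genes.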

How the data were processed

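RNA of 4 libraries of C8-D1A cells (2 control, 2 MBP) was depleted of ribosomal RNA and made into directional libraries, per the labels' protocols. The tools bcl2fastq and HISAT2 and the build GRCm38 are named, without versions, per the submitters' processing notes. For the counting program, annotation and strand setting the entry is "not given in the sources used here". FPKM per gene is the unit the authors deposited, 1 column per library. Columns were matched to samples by title, and replicate numbers follow accession order and pair nothing.

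FPKM times exon length (GENCODE M21, 24121 identifiers found) was a whole multiple of a single value in each library, and this yielded depth and reads. Members and lists were chosen with earlier results of these data known. The values of 1 member are not reported here, and it stays in the counts, medians and sums over members. Values by library are given for the 20 highest, for those with an unadjusted p under 0.05 and for the highest of each class, with others added after their values were seen. From each partner list came the 2 highest genes and those with an unadjusted p under 0.05, and Nid1, Nid2, Efemp2 and Ogn were added after their values were seen.

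The test across all genes was limma 3.58.1 in R 4.3.3 on log2(FPKM + 1), with a spread trend, two-sided, Benjamini-Hochberg adjusted over the 12403 genes that reached FPKM 1 in 2 or more libraries. Fold changes on this scale understate the change of low genes. The script was tested on simulated data. Replicates differed by more than counting noise (chi-square per gene 9.07 for controls, 4.54 for MBP). Each library was counted as a replicate, although separate cultures are not stated and this spread may be technical. Intervals of reads cover counting error only, since no molecular identifiers are described. The 14 alternatives were other pseudocounts, filters and scalings, protein-coding genes, a loess correction for GC content and length, limma-voom on recovered reads, and each library left out.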

Additional observations from a re-analysis of the deposited data

How the results depend on the processing

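Members past the threshold stayed at 0 under all 14 alternatives, with limma's adjusted p for members from 0.337 upward. Over all genes the count was 0 except with limma-voom on recovered reads, which called 18 genes, 0 of them members. Members higher in MBP without overlap of the groups, 2 as reported, came to 5 without a filter (8.2% of 61 members, against 17.1% of all genes), 4 by TPM (16.7% against 24.2%), 7 with the GC and length correction (29.2% against 19.0%) and 4 by limma-voom (10.3% of 39 members against 21.1%). Members lower, 4 as reported, came to 8 without a filter (13.1% against 18.5%), 2 by quantile normalization (8.33% against 21.4%) and 6 by limma-voom (15.4% against 22.4%). With 1 library left out the groups are smaller and overlap less by construction: 3 to 10 members were higher (12.5% to 41.7%, against 31.4% to 38.5% of all genes) and 5 to 13 lower (20.8% to 54.2%, against 33.5% to 41.1%), the 13 without control 2. The median log2 fold change of the members was 0.0212 with the GC and length correction. The 20 highest members were the same 20 genes within each library and by TPM. Of 318 values of 23 single members under the alternatives 22 changed sign, with 0 called. By TPM Col5a2 stood at 0.0004 and Lamb2 at 0.0216. Lamb2 stood at 0.0051 by median-of-ratios scaling, 0.0118 by quantile normalization and 0.0704 with the GC and length correction, under which Lama5 stood at 0.0192 and Col18a1 at 0.0118. With each library left out in turn Fn1 ranged from -0.0492 to 0.0722, Tnc from -0.0202 (without MBP 1) to 0.1271 and Postn from -0.0781 to 0.0303. Col3a1 ranged from -0.0056 to 0.0523, Col5a2 from -0.0596 to 0.0179, Col6a1 from -0.0225 to 0.035, Col6a2 from -0.0716 to 0.1582, Col7a1 from -0.019 to 0.0993 and Col27a1 from -0.0071 to 0.0761. Lama4 ranged from -0.0003 to 0.0668 and Lamb2 from -0.0189 to 0.0181. The cause of these shifts was not tested. Replicates spread beyond counting noise, so 2 libraries a group limit the comparison of members that passed the filter. For the 15 members with at most 10 reads in all, a difference was not detectable at this depth. No paired analysis was possible because the replicate numbers only follow accession order.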
